A study of Rattus norvegicus with 7 samples.

Results

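The microRNAs rno-miR-15b-5p, rno-miR-16-5p, rno-miR-195-5p and rno-miR-497-5p, written below without the rat prefix rno, are 4 of the 719 rat microRNAs (miRNAs) on the array used here. They were chosen by name, as members of one seed family encoded in 2 autosomal clusters, and all 8 of their probes were read on all 7 arrays. The samples were primary skeletal muscle cells of neonatal rat limbs, bought from a cell collection and frozen at the second passage. Every sample was on day 11 after the switch from growth medium to a low-horse-serum medium that induces differentiation. Per the titles and the series design, 3 samples were untreated controls and 4 had recombinant interleukin-6 (IL-6), a cytokine that working muscle releases, at 1 ng/ml. The growth protocol mentions IL-6 for the control samples too, and the groups follow the titles. The labels do not say whether replicates came from separate cultures, so the p-values measure the spread between these samples, which may be technical. The question put by the design is whether IL-6 during differentiation changes miRNA levels.

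A miRNA guides an Argonaute protein to messenger RNAs mainly through its seed, the stretch near its 5′ end that pairs with the target. The miR-15 and miR-16 family is known from other cells for repressing D- and E-type cyclins, checkpoint kinases and the survival factor Bcl2, and so for holding cells out of the cell cycle. In mice miR-195 has been tied to the arrest of heart muscle cells after birth and miR-195 and miR-497 to quiescence of muscle stem cells. Myoblasts leave the cell cycle before they fuse into myotubes, which is where the family bears on a differentiating muscle culture.

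All 4 mature miRNAs carry the same seed, and they are shown to let the shared and the differing bases be compared. Sequences are RefSeq's, from build GRCr8, and capitals mark bases 2 to 8.
miR-15b-5p: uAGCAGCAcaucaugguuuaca
miR-16-5p: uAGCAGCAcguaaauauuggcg
miR-195-5p: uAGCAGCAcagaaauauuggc
miR-497-5p: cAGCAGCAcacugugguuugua
miR-322-5p: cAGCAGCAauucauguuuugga
miR-503-5p: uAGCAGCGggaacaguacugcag
Of the 651 array miRNAs found in the sequence table, 5 have the seed AGCAGCA: the 4 above and miR-322-5p, the rat counterpart of human miR-424. The seed of miR-503-5p, which is encoded beside miR-322, differs from it by A8G, counted from 1 at the 5′ end. The members most alike belong to different clusters. miR-16-5p and miR-195-5p are identical at 19 of 21 positions and differ by G10A and U11G, with the base of miR-16-5p first. miR-15b-5p is identical at 16 of 22 positions to miR-497-5p and at 16 of 22 to miR-322-5p. The cluster neighbours miR-15b-5p and miR-16-5p share 14 of 22 positions, and miR-195-5p and miR-497-5p share 12 of 21.

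The first cluster lies on chromosome 2, within the span of Smc4, which encodes a condensin subunit: miR-15b-5p maps to chr2:155555197-155555218 and miR-16-5p to chr2:155555343-155555364, both on the + strand, with 51 bases between their hairpins. The second lies on chromosome 10 within the span of no other annotated gene, with Bcl6b and C10h17orf49 as the nearest protein-coding genes. There miR-497-5p maps to chr10:55450172-55450193 and miR-195-5p to chr10:55450509-55450529, both on the + strand, with 255 bases between the hairpins. Of the members' hairpins 3 are in the sequence table, and they are shown with both mature arms in capitals because the array measured both arms.
Mir16: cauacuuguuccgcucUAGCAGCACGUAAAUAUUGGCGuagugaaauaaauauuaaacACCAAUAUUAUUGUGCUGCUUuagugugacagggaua
Mir195: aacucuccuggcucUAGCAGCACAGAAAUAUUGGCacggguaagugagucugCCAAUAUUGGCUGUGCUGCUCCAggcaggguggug
Mir497: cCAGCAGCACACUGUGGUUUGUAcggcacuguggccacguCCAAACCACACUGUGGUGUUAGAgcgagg
The 5p arm is the first run of capitals in each hairpin and holds the family seed.

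Each member had 2 probes of different length, each printed in 10 spots on every array. Counted from the 5′ end, they pair with their miRNA from base 3, 4 or 5 to its last base, so they cover most of the shared seed as well as the bases by which the members differ. The longer probe of each member is shown, 5′ to 3′, with capitals for the bases that do not pair with the member most like its own target.
miR-15b-5p probe, against miR-497-5p: tGTaaaccaTGAtgtgctgc
miR-497-5p probe, against miR-15b-5p: tACaaaccaCAGtgtgctgc
miR-16-5p probe, against miR-195-5p: CgccaatatttACgtgctg
miR-195-5p probe, against miR-16-5p: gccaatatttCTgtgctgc
The miR-15b-5p and miR-497-5p probes have 5 unpaired bases with each other's target, and the miR-15b-5p probe also has 5 with miR-322-5p, which was detected on all arrays. The miR-16-5p probe has 3 with miR-195-5p. The miR-195-5p probe has only 2 with miR-16-5p, the smallest number within the family.

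A miRNA was called detected as the scanner software reports it, and 174 to 185 miRNAs were detected on a control array against 179 to 207 on an IL-6 array. The lowest signal of a probe well above background was 12.9 to 18.2 intensity units across the arrays. None of the 7 miRNAs listed as muscle fibre markers (miR-206-3p, miR-1-3p, miR-499-5p, miR-133b-3p, miR-208a-3p, miR-133a-3p and miR-208b-3p) was detected on any array, and their brightest probe reached 9.23 units. By contrast, 5 of 5 miRNAs listed for fibroblasts and smooth muscle were found on all arrays, with a summed total signal of 18661 to 23962 units in controls and 17286 to 26775 with IL-6. The absence of the muscle fibre miRNAs does not match a culture labelled as differentiated muscle cells. Detection of the other 5 does not by itself tell which cells were present. The part of either list in the results was not tested. None of the listed miRNAs of endothelium (2) or epithelium (5) was detected, and of 5 blood miRNAs only miR-223-3p was, on 1 IL-6 array. Control replicate 3 and IL-6 replicate 1 stood apart from their groups for several miRNAs described here. The controls filled the first slide row and the treated samples the second, so position by row and treatment cannot be told apart.

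Within the family, both miRNAs of the chromosome 2 cluster were detected on all 7 arrays and both of the chromosome 10 cluster on none. Neither detected member passed the test for a difference between IL-6 and control. miR-16-5p differed by 4.97% and miR-15b-5p by 18.3%, both with the higher mean under IL-6, and the groups overlapped for both. In such bulk RNA, fewer cells holding a miRNA and less of it per cell cannot be told apart.

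miR-16-5p, which is often used as a reference in small RNA studies, gave processed signals of 884, 978 and 1105 intensity units in control replicates 1 to 3 on its longer, 19-base probe. With IL-6 the same probe gave 905, 1332, 1238 and 1252 units in replicates 1 to 4. The first IL-6 array lay within the control range, and the other IL-6 arrays were above all of them before scaling between arrays. Its 18-base probe gave 481, 547 and 581 units in controls and 503, 694, 639 and 640 units with IL-6. The longer probe was 1.79 to 1.96 times as bright as the shorter one across the 7 arrays, and both probes put the arrays in the same order. Replicate spots of one probe varied with a coefficient of variation of 1.99% to 6.64%, and all 134 spots kept were well above background.

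miR-15b-5p, encoded by the neighbouring hairpin, gave 38.6, 43.5 and 56.6 units in controls on its 20-base probe and 43.7, 74.4, 64.9 and 65.7 units with IL-6. Its 19-base probe gave 21.8, 27.7 and 31.2 units in controls and 24.7, 45.6, 35.1 and 39.3 units with IL-6. Control replicate 3 was the highest control and IL-6 replicate 1 the lowest treated array on both probes. The 19-base probe lay close to the detection limit: 28 of its 30 control spots were well above background, against 40 of 40 IL-6 spots, and its spots varied by 4.29% to 14.3%. The 20-base probe was 1.57 to 1.85 times as bright and varied by 7.22% to 10.0%, so it carries the reported value.

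miR-195-5p, which represses the checkpoint kinase Chek1 in mouse heart, gave no signal above background. Its 19-base probe read 0.29, -0.37 and 0.76 units in controls and 2.13, 4.83, 0.30 and 4.89 units with IL-6. Its 18-base probe read -3.98, -5.58 and -6.54 units in controls and -2.33, -3.01, -5.31 and -2.14 units with IL-6. All of these values lie around zero, below the 12.9 units at which any probe was first called above background. The probes thus read no more than 4.89 units in RNA that held miR-16-5p, with which they leave 2 bases unpaired.

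miR-497-5p, encoded beside miR-195, was likewise not above background. Its 20-base probe read 0.78, -0.999 and -0.69 units in controls and 1.09, 0.88, -0.79 and 1.83 units with IL-6. Its 19-base probe read -1.30, -1.04 and -1.05 units in controls and 0.30, -0.03, -2.88 and -3.73 units with IL-6. The 265 spots of miR-195-5p and miR-497-5p included none well above background. None exceeded the 95th percentile of the negative-control spots on its own array, which was 7.23 to 10.7 units, whereas all 273 spots of miR-15b-5p and miR-16-5p did. The highest single spot was 8.65 units for miR-195-5p and 4.19 units for miR-497-5p. With both groups below background no fold change can be given for either miRNA, and a change beneath this limit was not detectable. The opposite arms miR-15b-3p, miR-16-3p, miR-195-3p and miR-497-3p were not detected on any array either, with probe signals of -8.07 to 5.19 units and none of their 534 spots well above background.

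**Figure D1:**
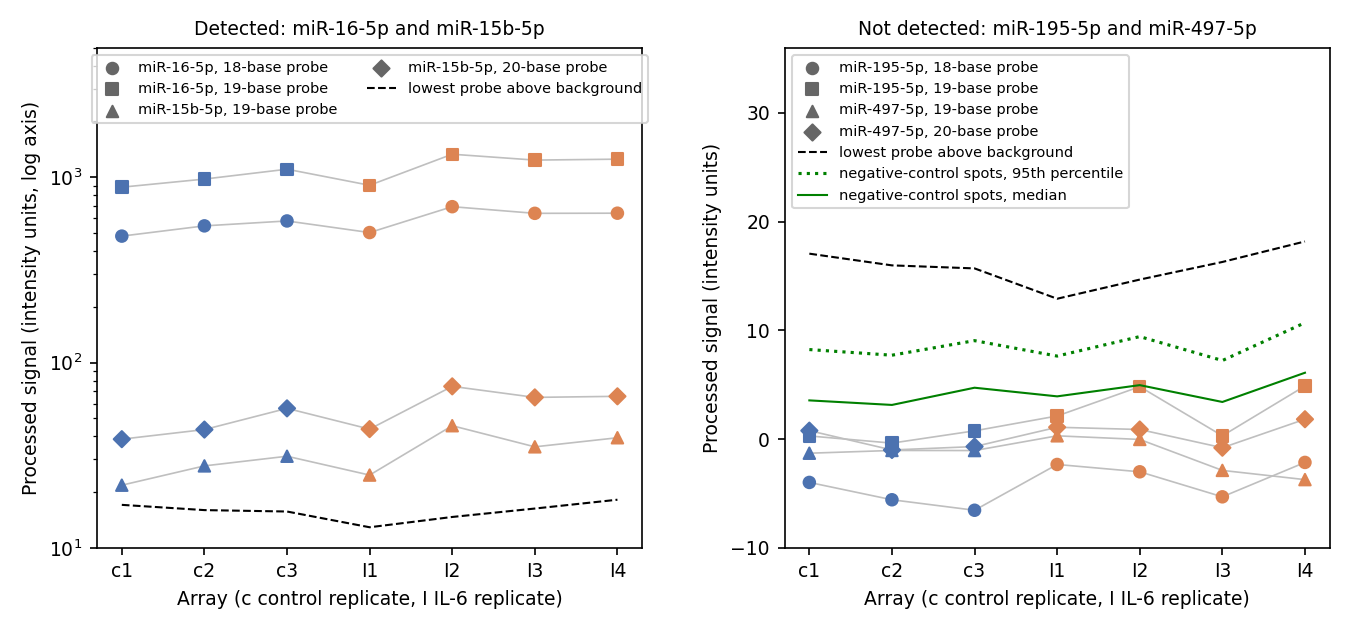
Processed signal of the 8 probes of the family on each array (c1 to c3, control replicates in blue; I1 to I4, IL-6 replicates in orange), in intensity units, on a log axis at left and a linear axis at right. The miR-16-5p and miR-15b-5p probes at left lie above the dashed line of the lowest probe signal called above background on every array, while the miR-195-5p and miR-497-5p probes at right stay between -6.54 and 4.89 units, beneath the dotted 95th percentile of the negative-control spots.

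To compare the groups, each array was divided by a factor from its 75th percentile, which ran from 0.852 to 1.00 in controls and from 0.882 to 1.25 with IL-6, and the brightest probe of each miRNA was put on the log2 scale. After scaling, miR-16-5p stood at 1037, 1030 and 1104 in controls and 1026, 1065, 1163 and 1191 with IL-6. IL-6 replicate 1 was the lowest of all 7 arrays and IL-6 replicate 2 lay within the control range, so the groups overlapped. The mean log2 scaled signal was 10.05 ± 0.05 (SD, n = 3) in controls and 10.12 ± 0.10 (SD, n = 4) with IL-6. The log2 fold change was 0.07 ± 0.06 (SE), with a 95% confidence interval of -0.08 to 0.22, and limma, adjusted by Benjamini-Hochberg across 181 tested miRNAs, gave an adjusted p of 0.599. On the linear scale this is a difference of 4.97%, with an interval from -5.47% to 16.6% under this scaling. A larger rise is not excluded, since the bound depends on the scaling. Unscaled and with spike-in scaling the log2 fold change itself was 0.25 (limma adjusted p = 0.418 and 0.113), above the upper end of 0.22. Its 18-base probe gave 0.02 ± 0.06 (SE), with a limma adjusted p of 0.837 over 292 probes.

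miR-15b-5p stood at 45.3, 45.8 and 56.5 after scaling in controls and at 49.6, 59.5, 61.0 and 62.5 with IL-6. The last 3 IL-6 arrays lay above every control, but IL-6 replicate 1 lay below control replicate 3. The mean log2 scaled signal was 5.61 ± 0.18 (SD, n = 3) in controls and 5.86 ± 0.15 (SD, n = 4) with IL-6. The log2 fold change was 0.24 ± 0.11 (SE), with a 95% confidence interval of -0.04 to 0.52 and a limma adjusted p of 0.253. The exact two-sided permutation test over the 35 splits of the arrays gave p = 0.143, where the smallest possible p is 0.0286. The interval on the linear scale ran from -2.54% to 43.6%, so these arrays leave room for no difference as well as for a rise of that size. The 19-base probe gave nearly the same value, 0.23 ± 0.11 (SE), with a limma adjusted p of 0.204.

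Among the 181 tested miRNAs, limma called 17, or 9.39%, at an adjusted p under 0.05, of which 9 (4.97%) were higher and 8 (4.42%) lower with IL-6. With slide column as a block limma called 0, with 52 miRNAs at an unadjusted p under 0.05. That fit takes no group difference from IL-6 replicate 2, the only array of its column, and estimates more terms from fewer arrays. Whether the lost calls reflect the column or the lower power was not tested. Deviations from the group means correlated over miRNAs at 0.52, 0.19 and 0.13 for arrays of the same column. Pairs from different columns ran from -0.44 to 0.29. Control replicate 3 correlated more with IL-6 replicates 2 (0.29) and 3 (0.26) than with its column mate, IL-6 replicate 4 (0.13). The groups did not overlap for 40 miRNAs, or 22.1%. Of the detected members of the family, 0 of 2 were called and 0 of 2 were free of overlap, and neither had an unadjusted p under 0.05, which 49 miRNAs (27.1%) had. By the size of the change miR-15b-5p ranked 25 and miR-16-5p ranked 103 of 181. On the probe level limma called 18 of 292 probes (6.16%), 10 of them higher (3.42%) and 8 lower (2.74%), and none of the 4 probes of these members was among them, although the 20-base probe of miR-15b-5p had an unadjusted limma p of 0.0481.

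**Figure D2:**
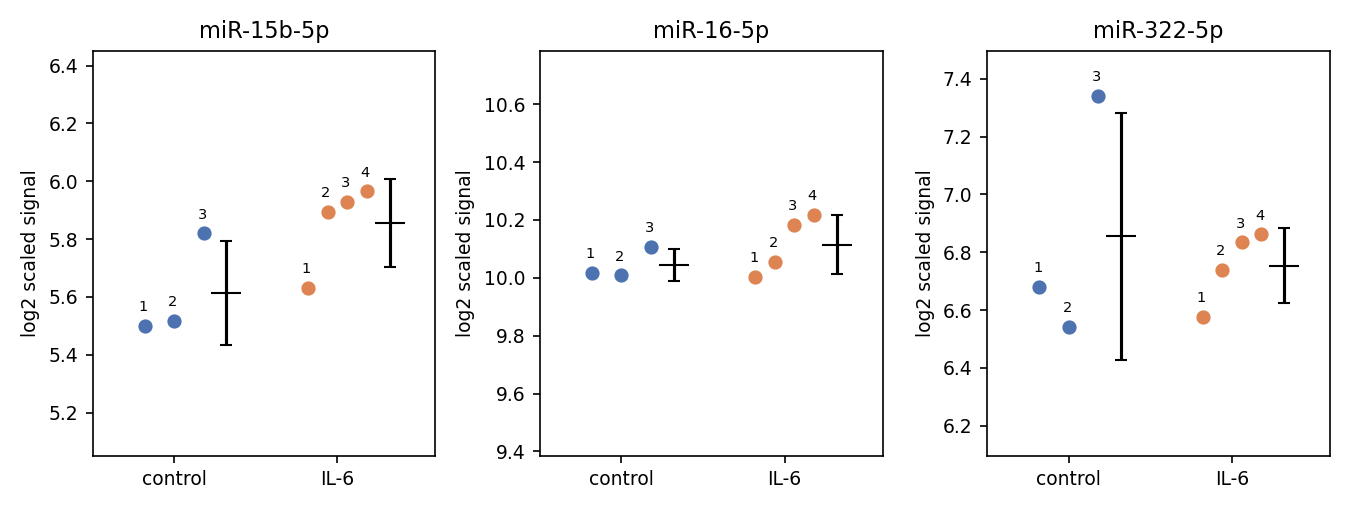
Log2 scaled signal of the brightest probe of miR-15b-5p, miR-16-5p and miR-322-5p for each array, numbered by replicate, with the group mean and SD as black bars (control, n = 3; IL-6, n = 4). All panels span the same log2 range, and in each of them the control and IL-6 arrays overlap: control replicate 3 is the highest control and IL-6 replicate 1 the lowest treated array.

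The overlap of miR-15b-5p came from 2 arrays, the highest control (replicate 3) and the lowest treated array (IL-6 replicate 1). Without both, its log2 fold change was 0.42 ± 0.03 (SE) and passed the limma test, in a fit that called 17.1% of miRNAs, 11.0% higher. These arrays were picked with the values known, and leaving out the pair that overlaps by itself gives a larger difference and a smaller SE, so that call is a description and no evidence of a change. With both kept but every array weighted by its scatter, it was 0.36 ± 0.07 (SE) with a limma adjusted p of 0.0235, in a fit that called 26.0% of miRNAs, 16.0% higher. That fit gave control replicate 3 a weight of 0.526 and IL-6 replicate 1 a weight of 0.277, the lowest of their groups. Leaving out control replicate 3, the highest control, alone brought the 20-base probe to 0.35 with a limma adjusted p of 0.0455 in a fit that called 9.59% of probes higher, while the miRNA as such was not called. miR-16-5p passed the test in none of these fits, nor in any other alternative.

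**Figure D3:**
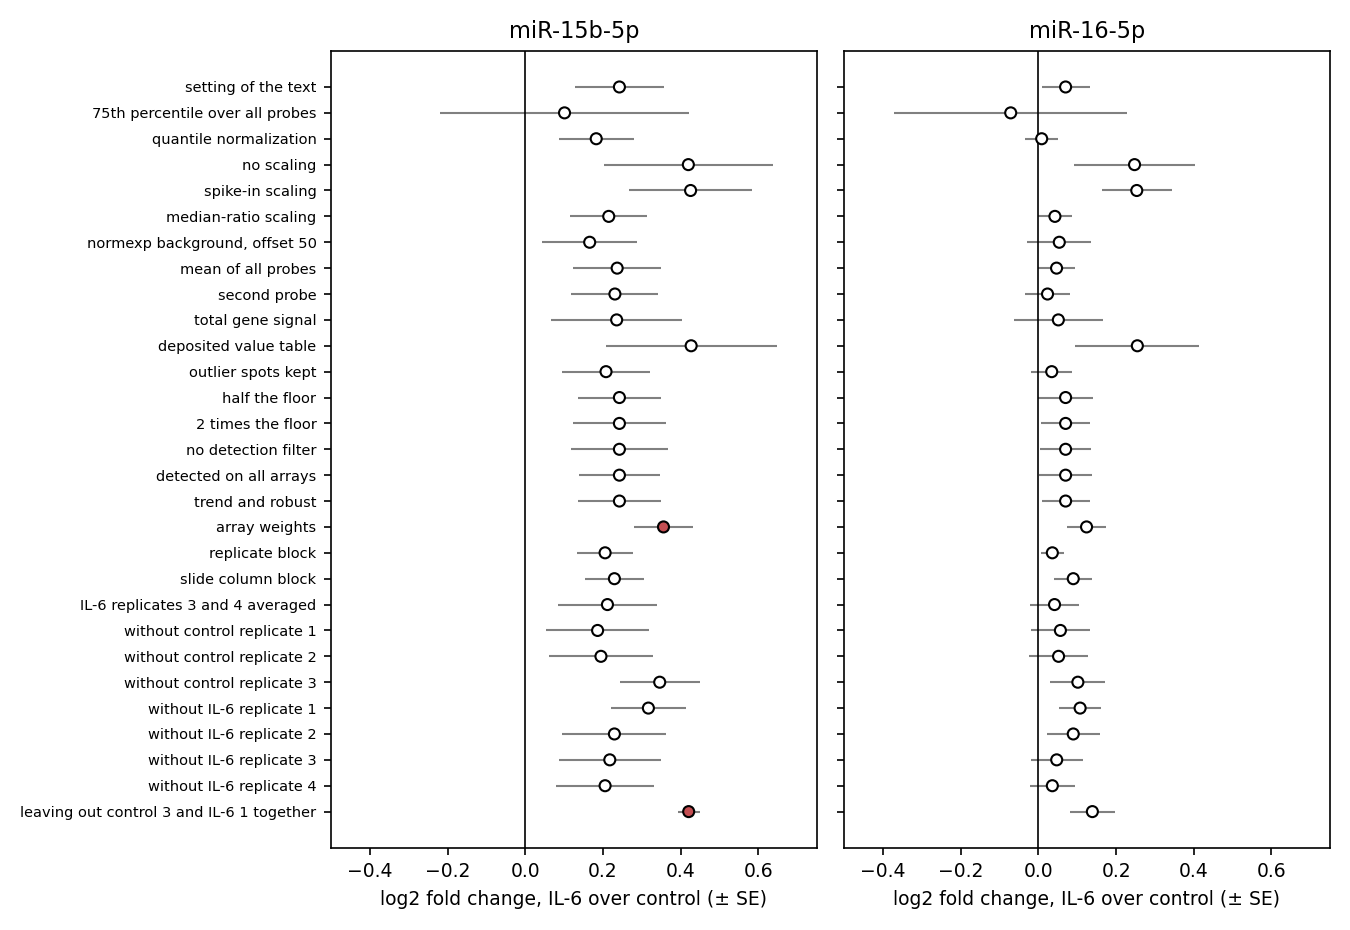
Log2 fold change, IL-6 over control, of miR-15b-5p and miR-16-5p (points, with SE as lines) in the setting of the text and in 28 alternatives, one per row, with red points where the limma adjusted p is under 0.05. miR-15b-5p lies right of zero in 28 of 28 alternatives and is red in the array-weight fit and in the fit that leaves out its highest control and lowest treated array, picked with the values known. miR-16-5p lies right of zero in 27 of 28 and is never red. Other floors and detection filters cannot move a point along the axis, and the block fits repeat the values of fits that leave out a single array.

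The scaling between arrays moved both members together with the bulk of the miRNAs. Unscaled, miR-15b-5p gave 0.42 and miR-16-5p 0.25 on the log2 scale, but the median over all tested miRNAs was then 0.17, against 0.02 after scaling. Relative to that median, unscaled values were 0.25 for miR-15b-5p and 0.08 for miR-16-5p, close to the scaled ones. Spike-in scaling gave 0.43 for miR-15b-5p (limma unadjusted p = 0.0345, adjusted p = 0.114). For miR-16-5p it gave 0.25 (limma unadjusted p = 0.0307, adjusted p = 0.113). The median was then 0.18, and 68 miRNAs had an unadjusted limma p under 0.05. Which scaling is nearer to the true levels was not tested. With the 75th percentile taken over all probes the median was -0.12, and miR-16-5p turned to -0.071 while miR-15b-5p stayed at 0.10.

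Scaling cancels when 2 miRNAs are compared within an array, so the difference between miR-15b-5p and miR-16-5p was followed from array to array. On the log2 scale miR-15b-5p minus miR-16-5p was -4.52, -4.49 and -4.29 in controls and -4.37, -4.16, -4.25 and -4.25 with IL-6. Only the change of this difference between groups can be read, since probes of different miRNAs are not compared in level. The difference was 0.17 higher with IL-6, but control replicate 3 lay above IL-6 replicate 1, and the exact two-sided permutation p for this 1 pair was 0.143. A separate response of the cluster neighbours was therefore not shown, nor was an equal one. A background that adds to the signal does not cancel as a scaling factor does. Normexp background correction gave 0.11 (exact two-sided permutation p = 0.543). Leaving out control replicate 3 gave 0.24 (exact two-sided permutation p = 0.0667 over 15 splits).

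Side by side on the slide, arrays of the same column can be compared within 3 columns. For miR-15b-5p IL-6 minus control on the log2 scale was 0.13, 0.41 and 0.15 in columns 1, 3 and 4, higher with IL-6 in 3 of 3. For miR-16-5p it was -0.02, 0.18 and 0.11, higher in 2 of 3. With the column as a block the log2 fold change was 0.23 ± 0.08 (SE, limma adjusted p = 0.180) for miR-15b-5p and 0.09 ± 0.05 (SE, limma adjusted p = 0.374) for miR-16-5p. IL-6 replicate 2 had no control in its column, so these values rest on the 3 columns alone.

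Which miRNAs moved most like each member across the 7 arrays was measured by the SD of the log2 difference between them, a description over arrays that share labelling and scaling. Closest to miR-15b-5p of 156 miRNAs compared were miR-582-5p (SD 0.04), miR-218a-5p (0.06) and miR-411-3p (0.06), against a median of 0.20. These 3 had log2 fold changes of 0.23, 0.25 and 0.29. The SD spans both groups, so values near that of miR-15b-5p follow from the way they were picked. Closest to miR-16-5p were miR-434-3p (SD 0.02), miR-337-3p (0.04) and miR-26a-5p (0.05), against a median of 0.12. The 2 members, encoded 51 bases apart, were not each other's nearest. The SD of their difference was 0.13, which placed miR-16-5p at rank 23 for miR-15b-5p and miR-15b-5p at rank 90 for miR-16-5p. Within control and IL-6 arrays, miR-15b-5p had SDs of 0.18 and 0.15 and miR-16-5p SDs of 0.05 and 0.10. How far these ranks follow measurement noise at unlike signals was not tested.

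The remaining miRNA with the family seed, miR-322-5p, is encoded on the X chromosome and in mouse myoblasts is known, with miR-503, for promoting cell-cycle quiescence through loss of Cdc25a. Its 21-base probe gave 87.4, 88.5 and 162 units in controls and 84.2, 134, 121 and 122 units with IL-6. Control replicate 3 stood far above the other controls and above every IL-6 array, so the groups overlapped. The log2 fold change was -0.10 ± 0.20 (SE), with a 95% confidence interval of -0.59 to 0.39 and a limma adjusted p of 0.832, and without control replicate 3 it turned to 0.14. miR-503-5p was detected on no array, with probe signals of -5.67 to 8.07 units. Of the 5 miRNAs with the seed AGCAGCA among the 651 in the sequence table, 3 were thus tested. Of these, 2 had a positive and 1 a negative log2 fold change, and none was called, where 9.39% of all tested miRNAs were.

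Other miRNAs known for a part in cell-cycle arrest or exit were listed as miRNAs named let-7 and the miR-26, miR-29 and miR-34 families, with miR-322-5p and miR-503-5p. Of the 17, 16 were tested, 13 with a positive and 3 with a negative log2 fold change, where 99 of all 181 tested miRNAs were positive. Their median was 0.07 against 0.02 over all tested miRNAs. The test called 1 higher and 1 lower, at background shares of 4.97% and 4.42%. let-7b-5p, of a family that represses Ras and cyclin D genes, rose by 0.24 ± 0.04 (SE, limma adjusted p = 0.0224), the same size as the difference of miR-15b-5p but with no overlap between groups, as for 22.1% of all tested miRNAs. The let-7 miRNAs differ from each other at few bases, so signal of one may reach the probe of another. miR-34c-5p, a p53 target that represses cyclins and Cdk genes, fell by 0.28 ± 0.04 (SE, limma adjusted p = 0.0143), a change against the direction of let-7b-5p. With slide column as a block neither was called, at 0.23 (limma adjusted p = 0.0962) for let-7b-5p and -0.25 (limma adjusted p = 0.0509) for miR-34c-5p. Over 28 alternatives let-7b-5p stayed past the test in 12 and miR-34c-5p in 16, with adjusted p up to 1 for both.

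Proliferation-linked miRNAs, the miR-17-92 and miR-106b-25 clusters with miR-221-3p and miR-222-3p, are known to target cell-cycle inhibitors. All 11 were tested, with 6 positive, 4 negative and 1 at zero, a median log2 fold change of 0.0016, and none called by limma (lowest adjusted p 0.154). Among all tested miRNAs 9.39% were called. The brightest were miR-221-3p at -0.09 ± 0.04 (SE, limma adjusted p = 0.200), whose groups did not overlap, as for 22.1% of all tested miRNAs, and miR-19b-3p at -0.11 ± 0.07 (SE, limma adjusted p = 0.381). Without scaling both turned positive, to 0.090 and 0.070. In other alternatives each was called lower. Array weights gave -0.125 for miR-221-3p (limma adjusted p = 0.0483), in a fit that called 26.0% of miRNAs. Quantile normalization gave -0.096 for miR-19b-3p (limma adjusted p = 0.0415). Of the 5 fibroblast and smooth muscle miRNAs none was called, with a median of -0.04, and the brightest, miR-143-3p and miR-199a-3p, gave -0.13 ± 0.08 (SE, limma adjusted p = 0.420) and -0.04 ± 0.08 (SE, limma adjusted p = 0.791), which also turned positive without scaling, to 0.051 and 0.13.

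**Figure D4:**
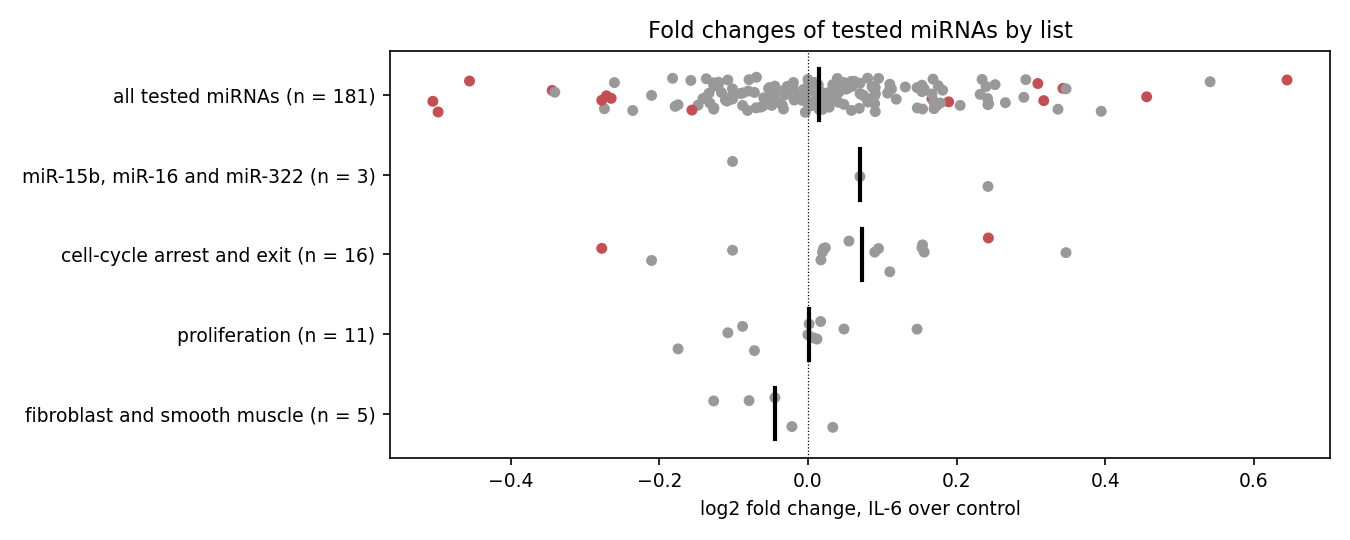
Log2 fold change, IL-6 over control, of the tested miRNAs in each list (points; vertical spread within a row only separates them), with the list's median as a black bar and red points for a limma adjusted p under 0.05. The 3 tested miRNAs with the family seed lie between -0.10 and 0.24, inside the spread of all 181 tested miRNAs, and none is red.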

How the data were processed

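The deposited scanner files hold spot intensities from 1-colour Agilent rat miRNA arrays, which the authors extracted with Feature Extraction (version 10.10.1.1 per the file headers). Its processed signal is an intensity after background subtraction and before any scaling between arrays. On 15095 spots the value table holds the same linear intensity as the total probe signal (tolerance 0.001), with medians of -1.35 to 0.10. The headers name rn4 for probe positions, whereas coordinates printed here are those of RefSeq's GRCr8 tables.

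Outlier spots (2.88% to 3.84% of 14380) were left out; none was saturated. Spots were averaged per probe, scaled by each array's 75th percentile (268 probes well above background on all arrays) (factors set to a geometric mean of 1), floored at 15.7 and converted to log2. A probe was well above background where a share of at least 0.5 of its spots was. Each miRNA took its brightest probe. The test took miRNAs detected throughout at least 1 group, 181 in all, 5 of them at the floor throughout, with limma 3.58.1 in R 4.3.3 (lmFit, eBayes, Benjamini-Hochberg, threshold 0.05). On data simulated with independent noise, only the mean estimated fold change was checked, which does not test the calls made here. The 7 arrays limit the precision: the median SE was 0.07.

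The members, lists, tests and alternatives were chosen with earlier results of these data known. Named are all members, miRNAs of the same seed, the opposite arms, and in each list the called miRNAs or else the 2 brightest. The 28 alternatives were other scalings, backgrounds, probe summaries, floors, filters, weights, blocks and left-out arrays. Replicate numbers were not taken to pair the samples (deviations of same-numbered arrays correlated at 0.52, -0.18 and 0.26 over miRNAs). Those of the same slide column correlated at 0.52, 0.19 and 0.13, where the value of 0.52 is the same pair of arrays. Pairs sharing neither number nor column ran from -0.44 to 0.29.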

Additional observations from a re-analysis of the deposited data

How the results depend on the processing

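The difference of miR-15b-5p stayed positive in 28 of 28 alternatives (0.10 to 0.43) and passed the test in 2: array weights (0.36) and leaving control replicate 3 out along with IL-6 replicate 1 (0.42), its highest control and lowest treated array, picked with the values known. miR-16-5p stayed positive in 27 (up to 0.25) and turned to -0.071 with the 75th percentile over all probes. These alternatives are not independent checks of the sign. Other floors and detection filters could not move the values, which stayed at 0.24 and 0.07. The column block repeated the values without IL-6 replicate 2 (0.23 for miR-15b-5p), and the replicate block those without IL-6 replicate 4 (0.21). Leaving out 1 array at a time gave 0.19 to 0.35 for miR-15b-5p and 0.04 to 0.11 for miR-16-5p, with no call, and 0.13 to 0.24 for the difference between them. The 18-base probe of miR-16-5p turned to -0.0040 under median-ratio scaling and to -0.011 with outlier spots kept. No scaling, spike-in scaling and the value table, in that order, turned miR-322-5p (0.076, 0.082, 0.083), miR-221-3p (0.090, 0.095, 0.097), miR-19b-3p (0.070, 0.075, 0.077), miR-143-3p (0.051, 0.056, 0.058) and miR-199a-3p (0.13, 0.14, 0.14). These settings shifted the median of all tested miRNAs to 0.17, 0.18 and 0.20. Array weights turned miR-322-5p to 0.11 and miR-199a-3p to 0.033, and leaving out both arrays turned them to 0.20 and 0.068. Leaving out 1 array at a time gave -0.26 to 0.14 for miR-322-5p, positive without control replicate 3, and -0.079 to 0.018 for miR-199a-3p, positive without the third control and also without the first IL-6 array (0.0059).

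The 9 higher and 8 lower miRNAs became 0 and 0 by limma with the 75th percentile over all probes, without scaling, with normexp, with the value table, without the detection filter and with the column block. The unadjusted p was then under 0.05 for 1, 29, 7, 28, 41 and 52 miRNAs in that order. They became 25 and 1 with spike-in scaling, 3 and 1 with the second probe, 3 and 2 with total gene signal, 29 and 18 with array weights, and 1 and 5 with IL-6 replicates 3 and 4 averaged. The lower count was 14 with median-ratio scaling and 5 with 2 times the floor, and the higher count 20 without control replicate 3 and IL-6 replicate 1. Leaving out 1 array gave 0 to 10 higher and 0 to 7 lower miRNAs; without control replicate 1 both counts were 0, with 35 miRNAs at an unadjusted p under 0.05. Probes called higher, 10 of 292, were 5 with outlier spots kept and 1 to 28 with 1 array left out, and probes called lower, 8, were 1 to 11. With the replicate block, 0 miRNAs were higher and 3 lower (45 at an unadjusted p under 0.05), miR-15b-5p was 0.21 and miR-16-5p 0.04, and neither was called. Not every sample correlated best with its own number. The cause of these shifts was not tested. For miR-195-5p and miR-497-5p the signal over background limits any statement.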
